A study of Mus musculus with 6 samples.

Results

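Integrins and leukocyte adhesion molecules, the surface proteins with which lymphocytes grip matrix, vessel walls and each other, were followed in group 2 innate lymphoid cells (ILC2s) with and without a guide against Cbfb. The genes were 25 integrin chains and 10 other adhesion molecules, taken by symbol through the Entrez number of each row. All 35 were measured, among 25206 rows, of which 23185 carried a gene symbol. The samples were mouse ILC2 lines of the C57BL/6J background kept with the cytokines IL-2 and IL-33 (10 ng/ml), which both groups received. Both groups had received a LentiV2CRISPRGFP lentivirus, with a non-target guide in the control and a guide against CBFβ in the knockout, and GFP+ cells were sorted at day 6 after transduction. Each group had 3 arrays. The labels do not say whether a line was a clone, how many guides were used or what age the mice were. They also do not state that arrays of 1 group stem from different cultures, and p-values then cover the spread of these 3 samples alone, which may be technical.

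An integrin is a pair of 1 alpha and 1 beta chain, and the pair decides what is bound: matrix proteins, or counter-receptors on other cells such as ICAM-1 and VCAM-1. On resting lymphocytes most integrins are bent and bind weakly, and signals from inside the cell, carried by RAP1, talin and kindlin, open them. Mucins such as PSGL-1 act earlier, by tethering cells to selectins on the vessel wall. ILC2s are largely resident in tissue, where integrins and their ligands take part in entry and retention. CBFβ is the partner that lets RUNX proteins bind DNA, and RUNX factors are known to act on several leukocyte integrin genes, among them Itgal and Itgae.

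The values are log2 expression values from single-colour arrays, with array medians of 3.57 to 3.63. Arrays of 1 group correlated across rows at 0.9946 to 0.996 (Pearson) and arrays of different groups at 0.988 to 0.9908, and no columns were identical. The targeted gene, Cbfb, read 8.53, 8.73 and 8.70 in the control and 7.88, 7.69 and 7.91 in the knockout, which leaves 56.4% of the control signal on a linear scale. An edited transcript can persist, so this value is a measure of the transcript and not of the edit or of CBFβ protein. Of 12 measured ILC2 markers, Icos (-0.78), Il7r (-0.56) and Il5 (-0.33) were lower in the knockout, Rora was higher (2.22, log2 difference), and 8 did not pass the test. Among those 8, Gata3 read 10.58 and 10.68 and Klrg1 11.37 and 11.36 in control and knockout, and Il17rb (2.53 and 2.50) read low in both groups. Il2ra (11.93 and 11.70) and Il13 (12.25 and 12.04) read lower in the knockout without overlap, both at an unadjusted limma p under 0.05. Ptprc (10.69 and 10.77) and Il9r (8.15 and 8.28) read higher without overlap, neither at such a p. The summed linear signal of the 12 lay between 19900 and 20200 in the control and between 17600 and 18100 in the knockout. Of markers of other cells, 1 of 9 for T cells (Trac, -0.61) and 1 of 8 for NK cells (Prf1, -0.49) were lower, 1 of 10 for fibroblasts and epithelium was higher (Dcn, 0.65), and 0 of 6 for B cells passed. At an unadjusted limma p under 0.05, 4 of the 9 T cell markers were lower (Trac, Cd8a, Cd3d and Cd8b1), while 5 of the 9 differences lay above 0. The summed linear signal of the 9 was 160 to 169 in the control and 138 to 145 in the knockout. For NK cells it was 2320 to 2710 and 2100 to 2380. Of 10 mast cell and basophil markers, Cpa3 was lower (-2.91) and Hdc (1.46) and Gata2 (0.76) were higher, with summed linear signals of 186 to 232 in the control and 134 to 145 in the knockout. The part of these markers in the results below was not tested. The arrays hold RNA of many cells, so fewer cells of a type and less RNA per cell cannot be told apart.

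In the knockout 3 of the 35 adhesion genes rose, 4 fell and 28 did not pass the test. The leukocyte integrin chain Itgax, which encodes CD11c, fell to 48.5% of its control signal, and Selplg, the gene of PSGL-1, to 67.2%. Icam2 and Pecam1, 2 adhesion receptors of the immunoglobulin superfamily, fell to 75.6% and 80.9%. The beta chains Itgb5 and Itgb3, which both pair with αV, rose to 169% and 150.2% of their control signal, and Itgal, the alpha chain of LFA-1, to 133%. The test was limma, with p-values adjusted by Benjamini-Hochberg over all 25206 rows and calls made under 0.05. With 1 array left out, 4 to 5 of the 7 passed, with 2 to 3 rises and 2 to 3 falls; Itgax, Itgb5, Itgb3 and Selplg passed in all 6 such fits.

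The 7 genes are 20.0% of the 35, where 9.75% of all rows passed. Higher calls made up 5.51% of all rows and lower calls 4.24%. Rows with strong signal pass more often: 18.1% of the 12601 rows above the median level passed, and so did 7 of the 22 adhesion genes above it (31.8%), against 0 of the 13 at or under it (1 at an unadjusted p under 0.05). The median difference over the 35 genes was -0.06 on the log2 scale, beside -0.0067 over all rows. The median size of the difference, sign left aside, was 0.20 over the 35 genes and 0.13 over all rows. Control and knockout arrays stood apart without overlap for 17 of the 35 genes, beside 27.5% of all rows. Of these 17 genes, 12 were lower and 5 higher in the knockout, beside 3386 lower and 3554 higher among all rows. Above the median level the arrays stood apart for 15 of the 22 adhesion genes (11 lower, 4 higher) and for 5524 of the 12601 rows (2617 lower, 2907 higher). The 25 integrin chains had a median difference of 0.05, with 13 above and 12 below 0. The 10 other molecules had a median of -0.30, with 9 below 0, and over all rows 12970 of 25206 lay below 0. The difference between these groups of genes was not tested.

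**Figure D1:**
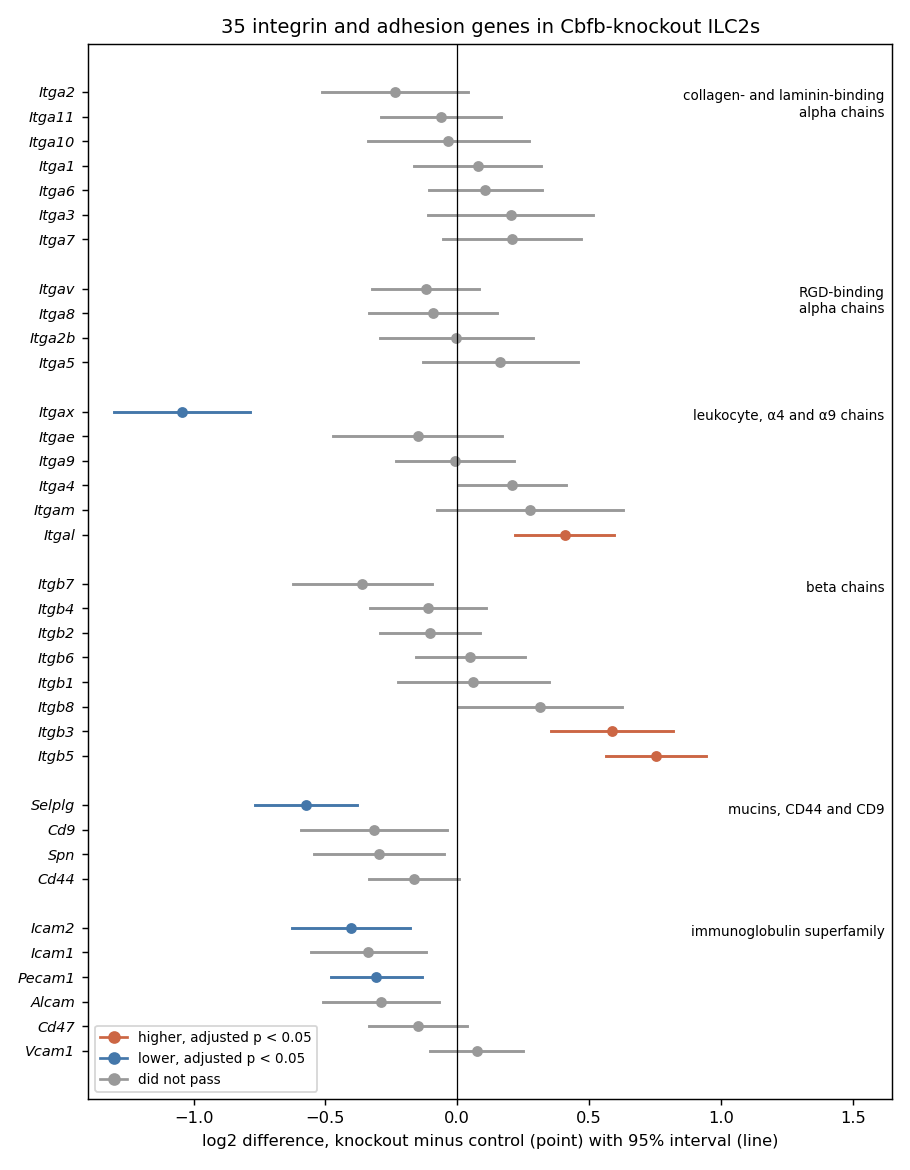
Log2 difference, knockout minus control (points, x axis), with its 95% interval (lines) for each of the 35 genes (y axis), grouped by role; colour marks the 7 genes past the test. Itgax lies farthest to the left (-1.04) and Itgb5 farthest to the right (0.75), and 9 of the 10 genes in the 2 lowest groups lie left of 0.

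The promoters of Itgax, with the largest fall, and of Itgb5, with the largest rise, are shown beside that of Itga4, whose window holds a RUNX core motif although its difference did not pass. Each line gives the 250 bases before the annotated start from RefSeq, build GRCm38.p6, on the plus strand, with matches to the core motif TGTGGT or its reverse complement in capitals. For Itgax the first 30 transcribed bases follow on their own line, since they hold its match. The stretches are chr7:128129300-128129549 and chr7:128129550-128129579 for Itgax, chr16:33829415-33829664 for Itgb5 and chr2:79255176-79255425 for Itga4.
Itgax: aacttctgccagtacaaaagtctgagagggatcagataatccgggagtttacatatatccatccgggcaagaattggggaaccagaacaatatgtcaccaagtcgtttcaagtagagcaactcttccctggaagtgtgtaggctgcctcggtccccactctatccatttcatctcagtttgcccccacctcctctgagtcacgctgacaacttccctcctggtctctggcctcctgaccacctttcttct
Itgax, first bases: catttgcttcttcTGTGGTgacttggcagc
Itgb5: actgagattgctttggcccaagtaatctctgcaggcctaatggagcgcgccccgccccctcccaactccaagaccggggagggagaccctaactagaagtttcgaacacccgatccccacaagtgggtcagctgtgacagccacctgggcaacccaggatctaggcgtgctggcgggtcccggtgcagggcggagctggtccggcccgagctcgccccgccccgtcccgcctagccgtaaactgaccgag
Itga4: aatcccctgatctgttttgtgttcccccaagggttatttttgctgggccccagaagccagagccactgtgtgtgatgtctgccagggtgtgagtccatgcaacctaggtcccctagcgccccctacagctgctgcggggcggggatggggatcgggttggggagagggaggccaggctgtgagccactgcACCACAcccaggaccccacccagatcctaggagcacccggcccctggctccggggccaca

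The match begins 14 bases into the Itgax transcript, on the gene's strand, and at position -60 of Itga4, on the opposite strand. RefSeq windows from 250 bases before to 50 after the start were matched by symbol for 24 of the 35 genes, with 27 windows. TGTGGT stood on either strand in windows of 3 of these 24 genes (12.5%), Itgax, Itga4 and Itga3, beside 18.9% of 27025 genes with a window. The second form, TGCGGT, stood in 1 of the 24 (4.17%), Itga8, beside 7.34% of all genes, and no match overlapped another. A match is a run of letters in this window, not a measured binding site. No window was matched for Itgal, Itgb3, Selplg, Icam2, Pecam1, Itgb2, Itgb4, Itgae, Itga6, Itga7 and Vcam1.

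Among the leukocyte alpha chains, counted with α4 and its relative α9, 1 rose, 1 fell and 4 did not pass. Itgax read 5.90, 5.68 and 5.85 in the control and 4.57, 4.90 and 4.83 in the knockout. The lowest control array lay 0.78 above the highest knockout array, more than the range within either group (0.22 and 0.33). The difference was -1.04 (standard error 0.113; 95% interval -1.30 to -0.78; limma adjusted p = 0.00128), larger in size than that of 99.0% of all rows. CD11c pairs with β2 and is used as a marker of dendritic cells. Of 14 measured macrophage and dendritic cell markers 0 passed in limma, and 0 had an unadjusted p under 0.05. Their summed linear signal lay between 145 and 161 in the control and between 139 and 159 in the knockout, and 12 of the 14 read under 3.6, the median of all group means, in both groups. Their mean log2 value lay between 2.95 and 3.055 in the control and between 2.89 and 2.93 in the knockout, lower without overlap. Of the 14 differences 11 lay below 0 and 3 above, from -0.28 (Mertk) to 0.03 (H2-Aa). Among them Flt3 read 2.44 and 2.41, Zbtb46 2.83 and 2.81 and H2-Aa 2.55 and 2.58, while Cd68, the highest of the 14 and so the largest part of the sum, read 5.87 and 5.84. No marker read 0, since array values keep a background.

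Itgal read 9.06, 8.91 and 8.95 in the control and 9.42, 9.37 and 9.35 in the knockout. All 3 knockout arrays lay above all 3 control arrays, with a difference of 0.41 (standard error 0.082; limma adjusted p = 0.0185). LFA-1, the pair of this chain with β2, binds ICAM-1 and ICAM-2 on other cells. With 1 array left out the call was lost 5 times in 6, in all but the fit without control replicate 1 (adjusted p up to 0.0797 over all alternatives). Itgam, which encodes CD11b and is the next protein-coding gene to Itgax in the gene table, read 3.16, 3.46 and 3.66 in the control and 3.50, 3.68 and 3.93 in the knockout. Its groups overlapped, its values lay near 3.6, where array differences can be understated, and its difference of 0.28 did not pass (95% interval -0.08 to 0.63; adjusted p = 0.347).

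Itga4, the alpha chain of receptors for VCAM-1 and MAdCAM-1, read 9.15, 9.33 and 9.27 in the control and 9.37, 9.47 and 9.53 in the knockout. The knockout arrays were the higher without overlap, by 0.21, yet the adjusted p was 0.215 (95% interval 0.0013 to 0.41). Its close relative Itga9 read 3.51 ± 0.12 and 3.50 ± 0.095 (SD, n = 3 arrays per group). Itgae, the CD103 chain that binds E-cadherin, read low in every array, at 2.70, 2.84 and 3.01 in the control and 2.53, 2.98 and 2.59 in the knockout. No difference of Itgae was detected (-0.15, 95% interval -0.47 to 0.17), and at that level the arrays could understate one.

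The beta chains had 2 rises and 6 genes that did not pass. Itgb5 read 8.46, 8.44 and 8.50 in the control and 9.13, 9.25 and 9.28 in the knockout. The gap of 0.63 between the nearest arrays of the groups exceeded the range within each (0.06 and 0.15). Its difference was 0.75 (standard error 0.082; limma adjusted p = 0.00133). Itgb3 read 6.74, 7.02 and 6.99 in the control and 7.44, 7.49 and 7.58 in the knockout, also without overlap, and rose by 0.59 (standard error 0.101; limma adjusted p = 0.01). αVβ5 and αVβ3 are receptors for vitronectin, and αVβ3 also for osteopontin and fibronectin. Itgb8, whose product pairs with αV to free active TGF-β, read 5.24, 5.48 and 5.70 in the control and 5.79, 5.63 and 5.94 in the knockout. Those arrays overlapped and the difference of 0.31 did not pass (adjusted p = 0.213).

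Itgb7, the partner of α4 in gut homing and of αE, read 8.45, 8.68 and 8.60 in the control and 8.01, 8.35 and 8.29 in the knockout. The knockout arrays were lower without overlap, by 0.10 at the nearest, and the difference of -0.36 did not pass (95% interval -0.62 to -0.10; limma adjusted p = 0.0976). Itgb2, the partner shared by the CD11 chains, read 10.03, 10.00 and 10.09 in the control and 9.86, 9.94 and 10.01 in the knockout (difference -0.10, 95% interval -0.29 to 0.09). Itgb1, the most widely shared beta chain, read 6.82 ± 0.23 and 6.88 ± 0.083 (SD, n = 3 per group), a difference of 0.06 (interval -0.23 to 0.35). Itgb4, the laminin receptor chain of epithelial hemidesmosomes, and Itgb6, an epithelial αV partner, read 3.33 or lower in every array.

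**Figure D2:**
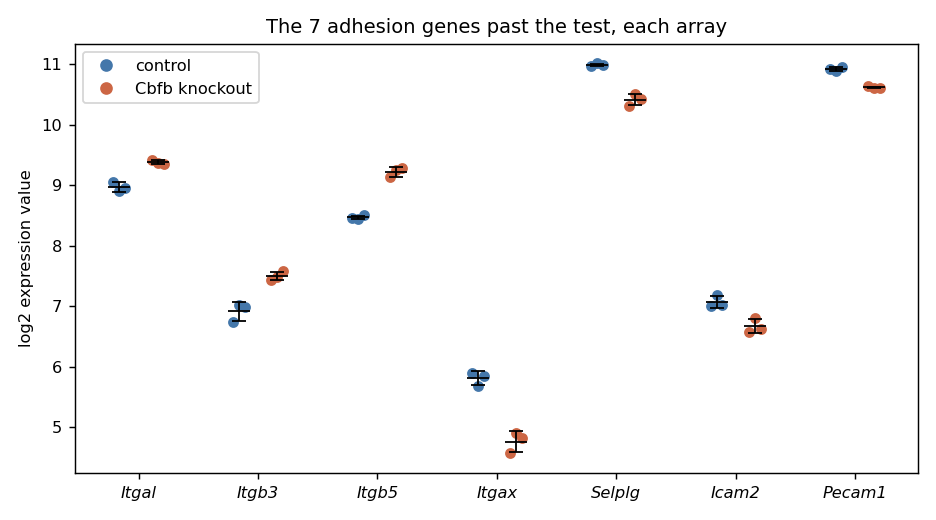
Log2 expression value (y axis) on each of the 6 arrays for the 7 genes past the test, control (blue) and knockout (orange), with bars for the mean and SD of 3 arrays. Within each gene the groups do not overlap: the 3 genes on the left read higher in the knockout and the 4 on the right lower.

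Of the alpha chains that bind RGD peptides in matrix proteins, Itgav read 8.71, 8.91 and 8.91 in the control and 8.74, 8.71 and 8.72 in the knockout. Its arrays overlapped, with a difference of -0.12 (95% interval -0.32 to 0.08; limma adjusted p = 0.496). The fibronectin receptor chain Itga5, the chain Itga8 and the platelet chain Itga2b read between 2.31 and 3.78 over all arrays, low in both groups. Itga2b differed by -0.0033 (interval -0.29 to 0.29). Of 7 measured platelet and megakaryocyte markers 0 passed in limma (2, Pf4 and Vwf, at an unadjusted p under 0.05), and their summed linear signal lay between 2130 and 2390 in the control and between 2190 and 2300 in the knockout. Most of that sum was Ppbp, which read 11.05 and 11.07, and Pf4 read 2.89 and 2.65.

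None of the 7 collagen- and laminin-binding alpha chains passed the limma test, and 0 had an unadjusted p under 0.05. Itga2, the collagen receptor chain known as CD49b, read 8.09, 8.09 and 7.98 in the control and 7.56, 7.93 and 7.96 in the knockout. Its groups were separated by 0.02 only, with knockout replicate 1 far below the others, and the difference of -0.24 did not pass (limma adjusted p = 0.295). Itga1, which lies directly next to Itga2 in the gene table and encodes the other collagen chain of activated lymphocytes, CD49a, read 2.41 ± 0.18 and 2.49 ± 0.047 (SD, n = 3). The laminin receptor chains Itga3 (5.02 and 5.22), Itga6 (3.95 and 4.06) and Itga7 (3.88 and 4.09 in control and knockout) differed by 0.11 to 0.21. The collagen chains Itga10 and Itga11 read between 2.26 and 3.34.

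The alpha and beta chain of a receptor were also set against each other for 10 known pairs, a list drawn up after the values of single chains had been seen. These values restate the differences of the single chains and are given as a description, since 3 against 3 arrays allow no exact two-sided permutation p under 0.10. For each array the alpha value minus the beta value was set against the control mean, which removes any scaling of a whole array. αX against β2 differed by -0.94, with knockout arrays at -1.06, -0.81 and -0.95 and control arrays at 0.10, -0.09 and -0.01. αV against β5 differed by -0.87 and αV against β3 by -0.71, whereas αL against β2 differed by 0.51 and α4 against β7 by 0.57. The other pairs were αM with β2 (0.38), αV with β8 (-0.43), α4 with β1 (0.15), αE with β7 (0.21) and α2 with β1 (-0.30). The amount of each receptor on the cell surface was not measured.

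**Figure D3:**
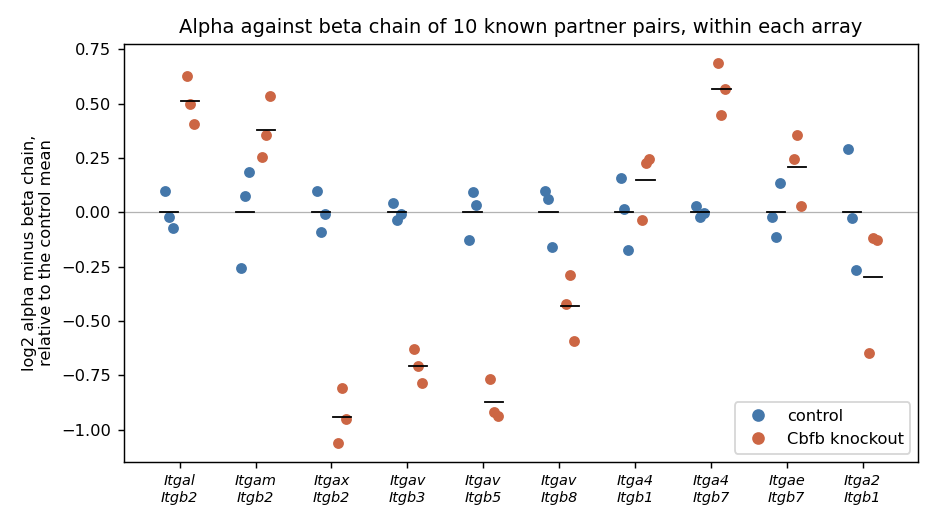
Alpha minus beta chain on the log2 scale, relative to the control mean (y axis), for 10 partner pairs (x axis), with 1 point per array and a black line at each group mean. The pairs of αX with β2 and of αV with β3 and β5 lie between -0.63 and -1.06 in the knockout, and αL with β2 and α4 with β7 between 0.41 and 0.69.

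The mucins, CD44 and the tetraspanin CD9 all read lower in the knockout without overlap, and 1 of the 4 passed the test. Over all rows 3386 of 25206 read lower without overlap, and 2617 of the 12601 above the median level. The nearest arrays of the groups lay only 0.02 apart for Spn and 0.08 for Cd9. Selplg, whose product is the main selectin ligand of leukocytes, read 10.97, 11.01 and 10.98 in the control and 10.31, 10.50 and 10.43 in the knockout. The control arrays lay within 0.04 of each other, and the difference was -0.57 (standard error 0.084; limma adjusted p = 0.00506). Spn, the gene of the anti-adhesive mucin CD43, read 7.78, 7.44 and 7.69 against 7.30, 7.30 and 7.42. That separation was small and the difference of -0.30 did not pass (adjusted p = 0.137). Cd44, the hyaluronan receptor gene, read 6.52, 6.53 and 6.51 in the control and 6.37, 6.36 and 6.34 in the knockout. Its arrays agreed closely within each group, but limma, which draws each row's spread towards that of all rows, gave an adjusted p of 0.242 for the difference of -0.16. It passed in the fit without that moderation (adjusted p = 0.0154). Cd9 read 3.38 ± 0.076 and 3.07 ± 0.22 (SD, n = 3), under 3.6, with an adjusted p of 0.16.

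In the immunoglobulin superfamily 2 of 6 genes fell and none rose. Icam2, a ligand of LFA-1 present on lymphocytes and endothelium, read 7.01, 7.19 and 7.02 in the control and 6.58, 6.80 and 6.63 in the knockout. The groups did not overlap, and the difference was -0.40 (standard error 0.097; limma adjusted p = 0.037). Pecam1, the gene of CD31, a homophilic receptor at endothelial junctions and on leukocytes, read 10.92, 10.89 and 10.95 in the control and 10.63, 10.60 and 10.61 in the knockout. Both groups were tight, and the difference was -0.31 (standard error 0.076; limma adjusted p = 0.0405). The call of Icam2 was lost in 5 of the 6 fits without 1 array, all but the fit without knockout replicate 2 (adjusted p up to 0.13 over all alternatives), and that of Pecam1 in all 6 and after either rescaling of the arrays (up to 0.124). Of 8 endothelial markers 0 passed in limma (1 at an unadjusted p under 0.05), with summed linear signals of 67.9 to 72.0 in the control and 64.6 to 71.5 in the knockout, and Cdh5 read 2.67 and 2.61.

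Icam1, the inducible LFA-1 ligand, read 7.75, 7.84 and 7.73 in the control and 7.28, 7.51 and 7.52 in the knockout. These arrays were lower in the knockout without overlap, and the difference of -0.34 did not pass (95% interval -0.56 to -0.12; limma adjusted p = 0.0667). Alcam, the CD6 ligand, was also lower without overlap, with 6.55, 6.74 and 6.77 in the control, 6.50, 6.35 and 6.34 in the knockout and a difference of -0.29 (adjusted p = 0.108). Cd47, whose product signals to SIRPα on phagocytes, read 9.11, 9.15 and 9.18 against 8.93, 8.99 and 9.07 (difference -0.15, interval -0.34 to 0.04). Vcam1, the α4β1 ligand, read 3.45 ± 0.05 and 3.52 ± 0.015, under 3.6 in both groups (SD, n = 3).

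Along the chromosomes, 4 pairs of these genes have at most 3 protein-coding genes between them. Itgam and Itgax have 0 between them and differed by 0.28 and -1.04, and Itga2 and Itga1 have 0 and differed by -0.24 and 0.08. Icam2 and Pecam1, with 2 genes between them, differed by -0.40 and -0.31, and Cd47 and Alcam, with 3, by -0.15 and -0.29.

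The machinery around these receptors was followed in 9 further lists, which hold 169 measured genes and none of the 35. Of these 20 rose and 18 fell, 22.5% of the 169, beside 9.75% of all rows and 18.1% of the rows above the median level. With 1 array left out, between 18 (without control replicate 2) and 28 (without control replicate 1) of these 38 genes passed, and 19 did without knockout replicate 2. Inside-out signalling genes had 3 rises and 1 fall among 22 measured (median 0.06). Rasgrp1, which encodes a guanine nucleotide exchange factor of RAS, rose 2.58-fold from 6.93 ± 0.086 to 8.29 ± 0.064 (SD, n = 3; limma adjusted p = 0.000135). Apbb1ip, the gene of RIAM, which links RAP1 to talin, rose 1.57-fold (7.71 to 8.37). Rabgap1, which encodes a GTPase-activating protein for RABs, rose 1.46-fold. The adaptor gene Skap1 fell by 0.45 on the log2 scale. Its call was lost without control replicate 2 or knockout replicate 2 (adjusted p up to 0.0628).

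Focal adhesion and outside-in signalling genes had 2 rises and 5 falls among 24 measured (median -0.04). Bcar1, the gene of the scaffold p130Cas, read 4.75 ± 0.21 and 5.38 ± 0.13 and rose by 0.63 (limma adjusted p = 0.0171). Ptk2b, which encodes the adhesion kinase PYK2, fell by 0.56 from 8.21 ± 0.036 to 7.65 ± 0.061, and Zyx, the gene of zyxin, fell by 0.54 from 8.72 ± 0.068 to 8.19 ± 0.067 (SD, n = 3). The 5 falls dropped to 2 or 3 in every fit without 1 array, in which Flna and Fyn were lost 6 times in 6 and Lims1 without control replicates 2 or 3 or knockout replicates 1 or 2. In those same 4 fits the call of Bcar1 was lost, and that of the other rise, Vcl, without control replicate 3 or knockout replicates 2 or 3, so that 0 rises passed without control replicate 3 or knockout replicate 2. Of 22 measured matrix and plasma ligands, 4 rose and none fell (median -0.03). Mfge8, the gene of an RGD protein that αVβ3 and αVβ5 bind, rose 1.81-fold from 7.27 ± 0.14 to 8.13 ± 0.15 (adjusted p = 0.00317). Lama5, a laminin chain gene, rose from 9.44 ± 0.06 to 9.997 ± 0.021. Thbs1, the gene of thrombospondin 1, which binds CD47 and αVβ3, read 4.99 ± 0.25 and 5.72 ± 0.24 and rose by 0.72. Its call was lost without control replicates 1 or 2 and without knockout replicates 2 or 3 (adjusted p up to 0.155 over all alternatives).

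Of 15 counter-receptors and selectin genes, Cd24a, a mucin-like P-selectin ligand gene, fell from 7.90 ± 0.15 to 7.02 ± 0.19 (SD, n = 3; limma adjusted p = 0.0042), and 14 did not pass. Other leukocyte adhesion receptors had 2 rises and 3 falls among 25 measured (median -0.0033). Tigit, an inhibitory receptor that binds nectin-like ligands, fell by 0.84, and Sema7a, a semaphorin that binds β1 integrins, fell by 0.60. Ly9, a homophilic SLAM family receptor gene, rose by 0.81 from 5.86 ± 0.20 to 6.67 ± 0.025, and the other rise, Cd48, was lost without control replicate 3. Tetraspanins, membrane organisers that associate with integrins, had 5 rises and 1 fall among 16 (median 0.10), led by Cd151, a partner of laminin-binding integrins (0.54), Tspan2 (0.54) and Cd37 (0.51), with Cd82 as the fall (-0.41). The 5 rises dropped to 1 (Cd151) without control replicate 2, to 2 without knockout replicate 2 and to 3 without control replicates 1 or 3 or knockout replicate 3. Cd37 was lost without control replicate 2 or knockout replicate 2, Tspan14 without control replicate 2, and Tspan2 in all such fits but that without knockout replicate 1. The remaining rise, Cd63, was lost in all 6, so it was not among the 5 tetraspanins that rose without knockout replicate 1. The call of Cd82 held only without control replicate 1 or knockout replicate 1. Among the 4 measured CD47 partners Thbs1 alone passed (median -0.20).

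Enzymes that build selectin ligands on PSGL-1 and other mucins had 3 rises and 4 falls among 20 (median 0.05). St3gal6, a sialyltransferase that helps form selectin ligands, rose 2.41-fold from 6.90 ± 0.16 to 8.17 ± 0.13 (SD, n = 3; limma adjusted p = 0.000542). Chst2, a sulfotransferase gene, read 4.12 ± 0.40 and 5.13 ± 0.19 and rose by 1.01, a call lost without control replicates 2 or 3 or knockout replicates 1 or 2 (adjusted p up to 0.134). Galnt1, which starts O-glycans, fell by 0.62 from 8.30 ± 0.062 to 7.68 ± 0.046. The 4 falls dropped to 1 without control replicate 2 or knockout replicate 3 and to 2 without control replicate 1 or knockout replicates 1 or 2, and the 3 rises to 1 in the fits that lost Chst2. ERM linkers, sheddases and hyaluronan genes had 1 rise and 3 falls among 22 (median -0.02). Nf2, the merlin gene, rose by 0.40, the metalloprotease gene Adam8 fell by 0.40, and Adam19, another metalloprotease gene, fell by 0.36. The calls of Adam19 and of the third fall, Ezr, were lost in all 6 fits without 1 array, that of Nf2 in all but the fit without control replicate 1, and that of Adam8 without control replicate 2 or knockout replicate 2.

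**Figure D4:**
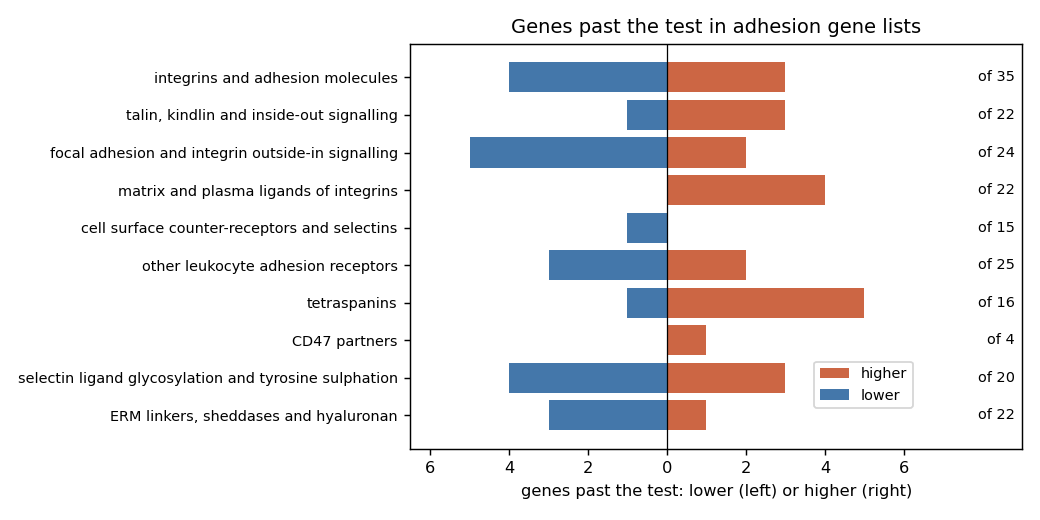
Number of genes past the test (x axis), lower in the knockout to the left of 0 and higher to the right, for the 35 genes and 9 further lists (y axis), with the number measured at the right. The tetraspanins hold 5 rises and 1 fall among 16 genes (1 rise and 0 falls without control replicate 2), and the matrix and plasma ligands 4 rises and no fall among 22 (3 rises without control replicates 1 or 2 or knockout replicates 2 or 3).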

How the data were processed

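Per the labels' protocols, RNA from a Trizol extraction carried a biotin label on single-colour arrays. The deposited table holds log2 values, 1 row per Entrez gene. RMA and limma 3.14.4 are named without a role in the submitters' processing notes. The log2 scale was read from the values (0.66 to 12.51), the array's build is not given in the sources used here, and the values carry no detection calls. RMA usually includes quantile normalisation, which hides a shift common to most genes, and low values are compressed. Names came from the platform table through Entrez numbers, and all 23185 matched a RefSeq gene table of GRCm38.p6.

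The values were used unfiltered. limma 3.58.1 in R 4.3.3 fitted 1 coefficient per group (knockout minus control), two-sided, with Benjamini-Hochberg adjustment over all 25206 rows. The script was tested on simulated data. Named were all 35 genes, the 3 largest differences among the called genes of each further list, and Cbfb. Skap1, Cd82, the marker genes and further genes whose calls were lost in an alternative were named after their values were seen. Genes and lists were chosen with earlier results of these data known, so counts over them are descriptions. The labels do not state that same-numbered arrays are pairs, so the numbers were not taken as pairs in the main fit. Deviations from the group means correlated at 0.007 to 0.054 for same-numbered arrays and at -0.065 to 0.044 for the others. With 3 arrays per group these values cannot settle whether samples were paired. Alternatives were a replicate block, leaving out each array, renewed quantile normalisation, median centring, rows above the median level, a trended and robust prior, array weights, no moderation and other thresholds. For genes outside the 35, the alternatives were added after seeing the data. The number of arrays limits the precision.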

Additional observations from a re-analysis of the deposited data

How the results depend on the processing

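Of the 7 called genes, Itgax, Itgb5 and Selplg passed in all 13 alternatives, and Itgb3 in 12, missing without moderation (adjusted p = 0.0613). No called gene changed sign. Leaving out 1 array left 4 to 5 of the 7 called, with 2 to 3 rises and 2 to 3 falls, while calls over all rows dropped from 2457 to between 1307 and 1837. The replicate block gave 6 calls (Pecam1 lost), and rows above the median level alone gave 7 falls, adding Icam1, Itgb7 and Alcam. In that fit both the moderation of the spread and the adjustment rested on those rows alone, and their parts were not separated. At an adjusted p under 0.01, 3 genes remained, 1 higher and 2 lower. Of the 28 genes not called, 5 passed in at least 1 alternative (Itgb7, Icam1, Alcam, Itga4 and Cd44), and 5 with small differences changed sign in at least 1 without passing. Of the 38 called genes of the further lists, 14 passed in all 13 alternatives and 7 in none of the 6 fits without 1 array (Adam19, C1galt1c1, Cd63, Ezr, Flna, Fyn and Galnt3). The replicate block lost 10 of the 38 (Adam19, Adam8, C1galt1c1, Cd63, Cd82, Ezr, Flna, Fyn, Galnt3 and Nf2), which took the ERM, sheddase and hyaluronan list to 0 rises and 0 falls, the focal adhesion falls from 5 to 3 and the tetraspanin fall to 0. The fit without moderation lost 19 of the 38, among them the tetraspanin rises Cd151, Cd37 and Tspan2. The cause was not tested. Low array signal limits what could be seen for the 13 genes at or under the median level.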
